A study of Mus musculus with 12 samples.

Results

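Of 55414 gene records counted in splenic CD4+ T cells, 7 are described here, the Krüppel-like factor genes Klf2, Klf3, Klf4, Klf6, Klf7, Klf10 and Klf13, which were chosen by name. All 7 were found by their symbols in the gene tables of both days and read by their identifiers in the count table. The cells came from 18-week-old male BALB/c mice of wild-type genotype. The LIP group had periodontitis induced by silk ligatures around the maxillary second molars, and the CTL group was healthy mice without a ligature. RNA was taken from uncultured cells (day 0) or after 2 days of culture with IL-2 (10 ng/ml), anti-TCRβ antibody (1 μg/ml) and anti-CD28 antibody (1 μg/ml in the protocol of the labels), with 3 libraries in each of the 4 groups and 12 in all. The treatment labels of some day 2 libraries name anti-CD29 (CTL 93 and LIP 96) or anti-CD30 (CTL 97 and LIP 97), and the methods of the study give other doses of IL-2 and anti-TCRβ. The labels number the libraries but do not say that each came from a separate mouse, so the p-values measure the spread between these libraries.

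Krüppel-like factors are zinc finger proteins that bind GC-rich and CACCC-type DNA, some as activators and others as repressors. In T cells the best known member is KLF2, which keeps resting cells quiescent and drives the genes of exit from lymphoid organs, such as S1pr1, and which is lost after engagement of the T cell receptor. KLF3 recruits the corepressor CtBP, KLF6 is induced rapidly by stress and growth signals, KLF10 is induced by TGF-β, and KLF13 is a late regulator of the chemokine gene Ccl5.

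The total was 6249018 to 7845676 counts per library on day 0 and 8691699 to 12866718 on day 2, so that 3 counts, the limit that a count of 0 allows, were worth 0.268 to 0.451 CPM, the count scaled to the library size with the TMM factors used for all CPM printed here. Such limits cover counting error only. The defining CD4 T cell markers were present in every library, summing to 2244 to 3385 CPM over 7 genes. The 6 B cell markers summed to 0.961 to 3.07 CPM on day 0 and 1.43 to 33.5 CPM on day 2, where LIP 90 had 1.43, LIP 96 33.5 and LIP 97 31.8 CPM and the CTL libraries had 3.69, 4.41 and 20.9 CPM. On day 0 the 4 NK cell markers summed to 4.961, 2.042 and 5.907 CPM in CTL and 5.912, 6.737 and 10.1 CPM in LIP. These groups did not overlap, but CTL 94 and LIP 92 were nearly equal. On day 2 the NK cell markers summed to 0 to 1.22 CPM. The 8 myeloid markers summed to 5.89 to 13.9 CPM on day 0 and 2.50 to 5.80 CPM on day 2. The 2 CD8 T cell markers summed to 4.73 to 6.73 CPM on day 0, and on day 2 to 4.42 to 6.32 CPM in CTL and 4.92, 13.2 and 9.19 CPM in LIP 90, LIP 96 and LIP 97. The 7 pancreatic acinar genes summed to 0.12 to 0.394 CPM in CTL and 0.687, 11.8 and 5.6 CPM in LIP 92, LIP 93 and LIP 94 on day 0, without overlap, and to 3.31 to 10.2 CPM over both groups on day 2. Of 6 listed erythroid markers 5 had a count record, and these summed to 0.738 to 3.01 CPM in all libraries. Klf2 and Klf4 are also abundant in endothelium, and the endothelial markers Cdh5, Kdr, Tek and Emcn were at 0 to 0.656 CPM in all libraries (Pecam1, the fifth of that list and one that T cells also express, was at 49.4 to 200 CPM). A pair of libraries stood apart from their groups. Leaving out CTL 94 of day 0 took the number of genes called between LIP and CTL that day from 60 to 658, and leaving out LIP 90 of day 2 took it from 0 to 2014. CTL 94 is the only CTL library of day 0 that shares its number with a LIP library of that day, LIP 94. The day 0 fits without it compare LIP and CTL libraries that share no number. The part of the numbers in these fits was not tested. The values of members without these libraries are given where they change a call, and for some other results. In bulk RNA, fewer cells of a type and less RNA per cell cannot be told apart.

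The promoters of 4 members are shown because Klf2 and Klf3 had the deepest falls in culture, and because Klf4 and Klf6 were the members at lower levels in all LIP libraries on day 0. Each run is the 250 bases before the start site of the canonical transcript in GENCODE M39, read from GRCm39 along the coding strand. Capitals mark matches on either strand to CACCC, to the GC box, which reads GGGCGG, or to the MEF2 site, and overlapping matches run together. The windows are chr8:73072476-73072725 on the plus strand for Klf2, chr5:64960457-64960706 on the plus strand for Klf3, chr4:55532467-55532716 on the minus strand for Klf4 and chr13:5911231-5911480 on the plus strand for Klf6.
Klf2: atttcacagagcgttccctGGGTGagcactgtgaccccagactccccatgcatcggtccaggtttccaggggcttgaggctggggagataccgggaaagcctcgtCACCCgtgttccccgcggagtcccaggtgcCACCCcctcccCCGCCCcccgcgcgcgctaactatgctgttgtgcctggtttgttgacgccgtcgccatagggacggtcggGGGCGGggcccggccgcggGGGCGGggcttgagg
Klf3: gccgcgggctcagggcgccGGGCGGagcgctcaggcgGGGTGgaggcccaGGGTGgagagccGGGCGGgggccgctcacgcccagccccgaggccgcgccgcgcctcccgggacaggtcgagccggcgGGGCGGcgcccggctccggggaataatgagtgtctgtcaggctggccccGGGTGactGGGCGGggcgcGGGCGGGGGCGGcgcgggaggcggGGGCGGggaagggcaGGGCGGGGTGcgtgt
Klf4: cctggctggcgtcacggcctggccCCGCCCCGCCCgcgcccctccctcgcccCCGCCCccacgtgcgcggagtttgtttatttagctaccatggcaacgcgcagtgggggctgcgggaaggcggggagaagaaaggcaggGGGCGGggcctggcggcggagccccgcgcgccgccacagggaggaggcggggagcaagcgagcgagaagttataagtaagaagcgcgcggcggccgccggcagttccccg
Klf6: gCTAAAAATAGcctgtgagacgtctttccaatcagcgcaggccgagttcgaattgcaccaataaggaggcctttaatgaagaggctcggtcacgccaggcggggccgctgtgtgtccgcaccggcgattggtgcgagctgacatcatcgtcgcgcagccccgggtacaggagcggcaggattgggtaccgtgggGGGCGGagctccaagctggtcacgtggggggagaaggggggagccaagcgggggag

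The letters GGGCGG, a GC box, were found in the promoters of all 7 members, against 36.3% of 21757 promoters of the same length. Klf3 held 8 matches, Klf4 held 4, Klf2 and Klf13 held 3 each, Klf7 and Klf10 held 2 each, and Klf6 held 1. The letters CACCC were found in 3 members, 4 times in Klf3, 3 times in Klf2 and once in Klf13, against 52.9% of all promoters. The member promoters were GC-rich, from 63.2% in Klf6 to 82.4% in Klf3, against a median of 53.2%, and matches to GC-rich letters move with that content. Of 7 motifs searched, the MEF2 site was found in Klf6 and in 0.506% of all promoters, GTAAACA was found in Klf7 and in 2.72% of all promoters, and TGACGTCA, TGANTCA and the CArG box were found in no member, against 1.70%, 6.18% and 1.40% of all promoters. These matches describe the letters in these windows. Other transcripts of Klf3, Klf4 and Klf7 start upstream of the site used here.

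Before culture, Klf2 was the most abundant member per kilobase of its longest transcript in the CTL group. It reached 105 ± 2.65 CPM per kilobase (SD, n = 3), followed by Klf13 at 83.5 ± 6.47, Klf6 at 67.5 ± 13.9 and Klf3 at 53.0 ± 6.15. Klf7 (11.3 ± 2.1), Klf10 (6.22 ± 0.762) and Klf4 (0.961 ± 0.207) were lower. In this order the libraries of Klf13 and Klf6, and those of Klf6 and Klf3, overlapped, whereas all other neighbours were apart. On day 2 in the CTL group the order was Klf13 (31.2 ± 1.27), Klf6 (29.0 ± 5.79), Klf2 (15 ± 6) and Klf3 (9.24 ± 0.677), where Klf13 and Klf6 overlapped. In the LIP group on day 2 Klf6 (40.5 ± 11.9) and Klf13 (36.0 ± 3.00) led and overlapped, and Klf2 (12.8 ± 3.79), Klf7 (8.69 ± 2.51) and Klf10 (6.90 ± 2.02) each overlapped the next, the last of them Klf3 (5.83 ± 1.03), which lay apart from Klf4 (1.97 ± 0.264). The place of Klf3 depends on its length. With the canonical transcript of 5262 bases in place of the longest of 8240 it stood at 83.0 CPM per kilobase in the CTL group on day 0, beside Klf13, and with the median length of 1026 bases over its 27 annotated transcripts it stood first, at 425.6.

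**Figure D1:**
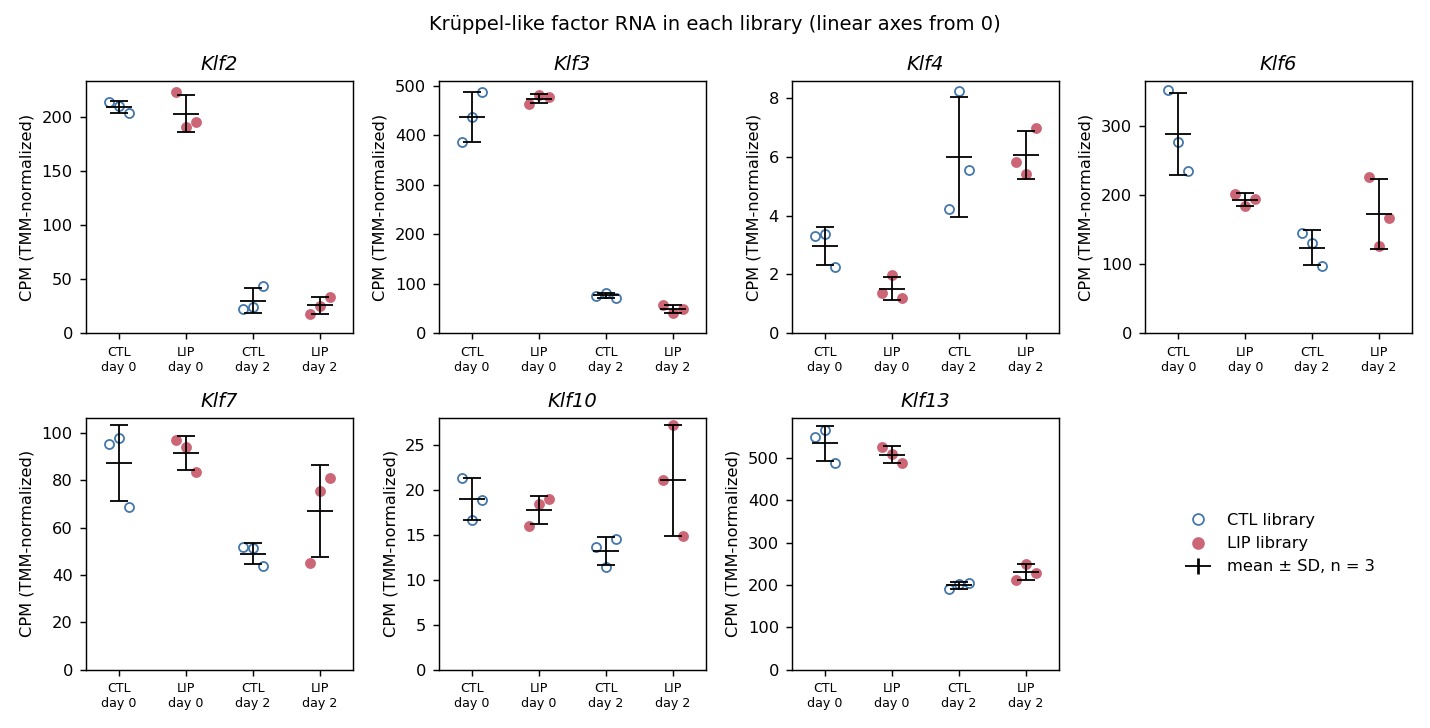
Level of each member in each of the 12 libraries, in CPM after TMM normalization over all libraries, on linear axes from 0. Open points are CTL libraries, filled points are LIP libraries, and bars give the mean ± SD of 3 libraries. Klf2, Klf3, Klf4 and Klf13 separate the days without overlap, and Klf4 and Klf6 lie lower in LIP than in CTL on day 0.

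The first comparison asked how the members changed in culture with TCR stimulation. In the CTL group all 7 passed the test (edgeR's quasi-likelihood test on all 12 libraries, Benjamini-Hochberg adjusted p below 0.05), 6 of them lower on day 2 and 1 higher, where 33.7% of the 15475 genes tested were called lower and 35.3% were called higher. In the LIP group 5 passed, 4 lower and 1 higher, where 35.2% were called lower and 36.6% were called higher. The median log2 fold change of the members was -1.22 in CTL, with an all-gene median of -0.02, and -0.45 in LIP, with an all-gene median of 0.00. Stimulation, culture and time cannot be told apart here, since no unstimulated cells were cultured.

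Klf2, the quiescence factor (GRCm39 chr8:73072726-73075502, plus strand, 3 exons in its canonical transcript), showed 214, 210 and 204 CPM in CTL and 223, 191 and 195 CPM in LIP on day 0. On day 2 it showed 22.4, 24.0 and 43.9 CPM in CTL and 18.0, 25.4 and 33.1 CPM in LIP. All day 2 libraries were far below all day 0 libraries, and the group ranges overlapped on each day. Klf2 fell 6.97-fold in CTL (log2 fold change -2.80, SE 0.24, edgeR adjusted p = 2.35e-07) and 8.03-fold in LIP (log2 fold change -3.00, SE 0.24, adjusted p = 1.19e-07). Without LIP 90 the fall in LIP was -2.80 on the log2 scale. Reads of Eps15l1, which overlaps Klf2 on the opposite strand, could add to its counts, because the library kit is directional but the strand setting of the counting is not given in the sources used here.

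Klf3, a repressor of the family (chr5:64959875-64990261, plus strand, 6 exons), showed 386, 437 and 487 CPM in CTL and 463, 481 and 477 CPM in LIP on day 0. After culture the values were 75.7, 81.9 and 70.8 CPM in CTL and 56.7, 39.7 and 47.6 CPM in LIP. The days did not overlap, and on day 2 the highest LIP library lay below the lowest CTL library. Klf3 fell 5.74-fold in CTL (95% interval 4.72 to 6.97, adjusted p = 2.76e-09) and 9.87-fold in LIP (8.06 to 12.1, adjusted p = 4.72e-10). Overlapping records are C230096K16Rik on the same strand and Gm20033 on the opposite strand.

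Klf13, the RANTES regulator that binds the Ccl5 promoter (chr7:63536099-63588663, minus strand, 2 exons), showed 550, 565 and 487 CPM in CTL and 526, 509 and 487 CPM in LIP on day 0. On day 2 it showed 191, 203 and 206 CPM in CTL and 212, 250 and 229 CPM in LIP. The spread within groups was small, with coefficients of variation from 3.88% to 8.32%, and the days were far apart. Klf13 fell 2.67-fold in CTL (2.32 to 3.08, adjusted p = 2.69e-08) and 2.20-fold in LIP (1.91 to 2.54, adjusted p = 1.71e-07). Genes on the opposite strand overlap it, E030018B13Rik among them.

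Klf7, a widely expressed member (chr1:64068606-64161508, minus strand, 4 exons), showed 95.2, 98.0 and 68.7 CPM in CTL and 97.1, 94.04 and 83.6 CPM in LIP on day 0. After culture the values were 51.7, 51.3 and 43.9 CPM in CTL and 44.9, 75.6 and 80.9 CPM in LIP, where LIP 90 was the low library. It fell 1.78-fold in CTL (1.34 to 2.38, adjusted p = 0.00162) and 1.37-fold in LIP (1.03 to 1.82, adjusted p = 0.0462). The call in LIP was lost in 9 of 12 fits that left out a library, and without LIP 90 the log2 fold change was -0.22 (adjusted p = 0.164) in place of -0.45. The call was also lost with the 6 LIP libraries alone (adjusted p = 0.0688).

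Klf6, an early response member (chr13:5911481-5920393, plus strand, 4 exons, with no overlapping gene), showed 352, 277 and 235 CPM in CTL and 202, 183 and 194 CPM in LIP on day 0. On day 2 it showed 145, 130 and 96.5 CPM in CTL and 227, 126 and 167 CPM in LIP. The CTL libraries were all lower on day 2, whereas the LIP libraries of the days overlapped. Klf6 fell 2.33-fold in CTL (1.72 to 3.16, adjusted p = 0.000127), and in LIP its log2 fold change was -0.16 (SE 0.20, adjusted p = 0.488). In LIP the value was -0.49 (adjusted p = 0.0379) with upper-quartile normalization and -0.52 (adjusted p = 0.0311) with library totals, where the median of all genes stood at -0.32 and -0.36, so that relative to that median Klf6 stood at -0.17 and -0.16. LIP 90 was the highest LIP library of day 2, and without it the log2 fold change was -0.40 (adjusted p = 0.0614).

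Klf10, the TGF-β-inducible member (chr15:38291703-38300959, minus strand, 4 exons), showed 21.3, 16.7 and 18.9 CPM in CTL and 15.9, 18.4 and 18.9 CPM in LIP on day 0. After culture the values were 13.6, 11.4 and 14.5 CPM in CTL and 21.1, 27.2 and 14.9 CPM in LIP. Its CTL libraries were lower on day 2 without overlap, and its LIP libraries overlapped. It fell 1.43-fold in CTL (1.07 to 1.92, adjusted p = 0.0288), a call that was lost without CTL 88 or CTL 94 of day 0 and without CTL 92 or CTL 93 of day 2 (adjusted p of 0.0569 to 0.115). In LIP its log2 fold change was 0.25 (SE 0.19, adjusted p = 0.243), which turned to -0.06 with upper-quartile normalization and -0.11 with library totals, and which stood at 0.45 (adjusted p = 0.0276) without LIP 97 of day 2.

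Klf4, a member that restrains proliferation (chr4:55527139-55532528, minus strand, 5 exons, with no overlapping gene), was the scarcest. It had 22, 28 and 17 counts in CTL and 10, 14 and 9 counts in LIP on day 0, and 40, 69 and 49 counts in CTL and 65, 58 and 54 counts in LIP on day 2. These were 3.31, 3.36 and 2.23 CPM against 1.37, 1.97 and 1.20 CPM on day 0, and 4.22, 8.23 and 5.56 CPM against 5.81, 5.42 and 6.99 CPM on day 2. Klf4 was the member that rose in culture, 2.01-fold in CTL (1.31 to 3.09, adjusted p = 0.00678) and 3.98-fold in LIP (2.48 to 6.36, adjusted p = 7.2e-05). Both calls held in all 18 alternative fits in which it was tested.

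**Figure D2:**
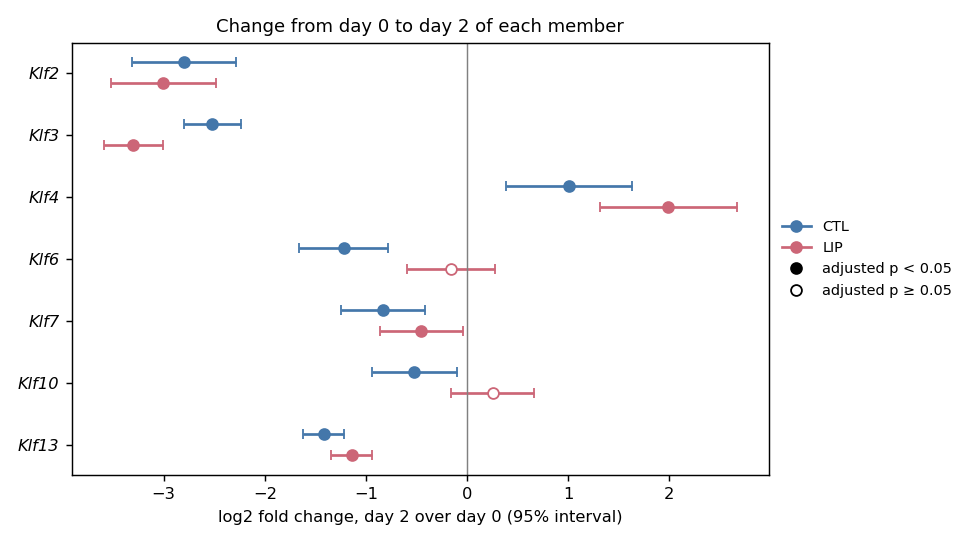
Log2 fold change from day 0 to day 2 for each member in CTL (blue) and LIP (red), with 95% intervals. Filled points passed an adjusted p of 0.05, and Klf6 and Klf10 in LIP are the open ones.

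The second comparison asked whether periodontitis changed the members in cells taken straight from the spleen. On day 0, 0 of 7 members passed the adjusted threshold, where 0.427% of 14064 genes were called (60 genes, 52 of them lower in LIP). At an unadjusted p below 0.05, 2 members were lower in LIP, where 13.9% of genes passed, and the same 2, Klf6 and Klf4, had groups that did not overlap, where 19.1% of genes did. The median over the members was -0.07 on the log2 scale, with an all-gene median of 0.01.

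Klf6 stood at 288 ± 59.3 CPM in CTL and 193 ± 9.42 CPM in LIP on day 0 (SD, n = 3). Its log2 fold change was -0.57 (SE 0.12, unadjusted p = 0.000492, edgeR adjusted p = 0.0718), 1.48-fold lower in LIP with an interval of 1.24 to 1.78. It ranked 96 of 14064 genes by p. The CTL libraries spanned a wider range than the LIP libraries, and CTL 94 was the CTL library nearest to LIP. Without CTL 94 the log2 fold change was -0.70 (adjusted p = 0.000934). Over the 6 fits that each left out a library it ran from -0.70 to -0.41. The adjusted p in these fits ran up to 0.414, and 1 of them passed. With DESeq2 on the 6 libraries of day 0 the log2 fold change was -0.58 (adjusted p = 0.000267). Over all alternatives with 6 or 12 libraries the adjusted p ranged from 2.83e-09, without a filter on low counts, to 0.547, with all 12 libraries in the fit.

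Klf4 stood at 2.97 ± 0.638 CPM in CTL and 1.51 ± 0.401 CPM in LIP (SD, n = 3). Its log2 fold change was -0.96 (SE 0.34, unadjusted p = 0.0149, edgeR adjusted p = 0.237), and it passed the adjusted threshold in 0 of 12 alternative fits. Without CTL 94, the lowest CTL library, it was -1.13 (adjusted p = 0.0925). At 9 to 28 counts per library its interval was wide, from -1.70 to -0.23. The other 5 members differed by -0.09 to 0.12 on the log2 scale. The intervals of Klf2 (-0.20 to 0.13) and Klf13 (-0.23 to 0.10) were the narrowest of these, and those of Klf3, Klf7 and Klf10 lay within -0.38 and 0.34.

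Immediate early genes, which cells induce rapidly without new protein synthesis, were set beside Klf6 and Klf4 on day 0. Of 18 listed genes 15 were tested, 0 were higher in LIP, 11 were lower at an unadjusted p below 0.05, where 13.9% of all genes passed in either direction, and 3 passed the adjusted threshold, where 0.427% of all genes did, with a median log2 fold change of -0.52. Without CTL 94, 11 passed the adjusted threshold, all lower in LIP, with a median of -0.61, where 4.59% of 14343 genes were called. Fos, which forms the AP-1 factor with Jun, fell by 1.89 on the log2 scale (adjusted p = 0.0286), Fosb by 2.34 (adjusted p = 0.00718) and Jun by 1.28 (adjusted p = 0.0199). Without CTL 94 their log2 fold changes were -2.25 (adjusted p = 2.27e-07), -2.66 (9.44e-07) and -1.53 (1.96e-06). The sum over all 18 genes was 2133, 1932 and 1137 CPM in CTL and 1157, 946 and 971 CPM in LIP, so that CTL 94 lay within the LIP range. The sum of 10 heat shock genes was 3419 to 3495 CPM in CTL and 1586 to 1719 CPM in LIP on day 0. The sums of the acinar genes and of the NK cell markers were higher in all LIP libraries on day 0, as given above. The part of these lists in the values of Klf6 and Klf4 was not tested.

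**Figure D3:**
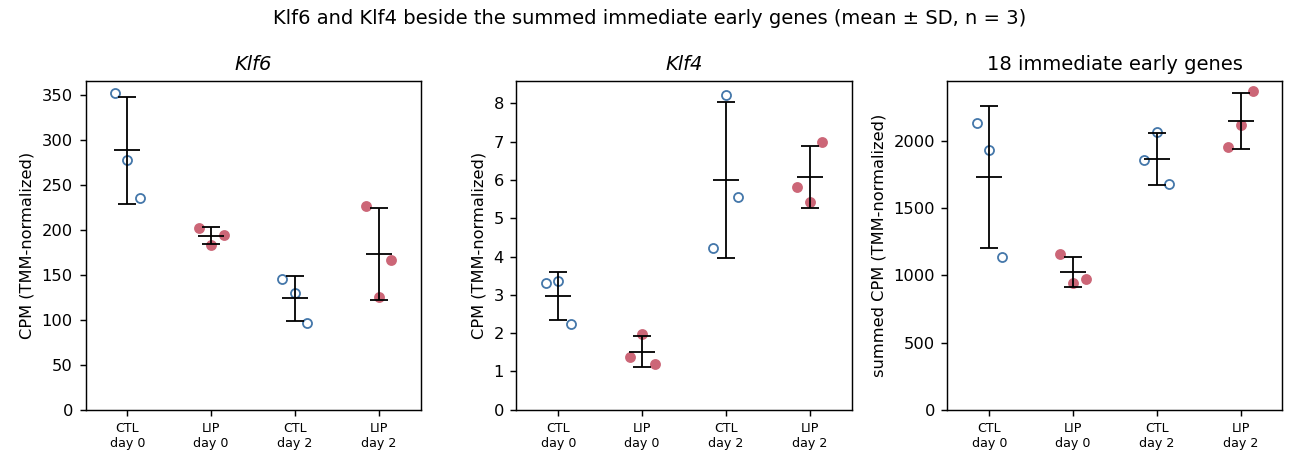
Klf6, Klf4 and the sum of 18 immediate early genes in each library, in CPM after TMM normalization, on linear axes from 0, with CTL open, LIP filled and bars for the mean ± SD of 3 libraries. On day 0 all LIP libraries lie below all CTL libraries for Klf6 and Klf4, while the sums of CTL 94 (1137 CPM) and LIP 92 (1157 CPM) are close.

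The third comparison asked the same question after TCR-mediated activation. On day 2, 0 of 7 members passed the adjusted threshold, where 0% of 14041 genes were called by edgeR (2322 genes had an unadjusted p below 0.05, and DESeq2 called 489). At an unadjusted p below 0.05, 2 members passed, where 16.5% of genes did, and 3 members had groups that did not overlap, where 21.4% of genes did. These 3 were Klf3, lower in LIP, and Klf10 and Klf13, higher in LIP.

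Klf3 stood at 76.1 ± 5.58 CPM in CTL and 48.0 ± 8.50 CPM in LIP on day 2 (SD, n = 3). Its log2 fold change was -0.68 (SE 0.15, unadjusted p = 0.0015, edgeR adjusted p = 0.124), 1.60-fold lower in LIP with an interval of 1.27 to 2.02. Of the LIP libraries, LIP 90 was the nearest to CTL. Without it the log2 fold change was -0.79 (adjusted p = 0.00577). Klf3 also passed with DESeq2 (adjusted p = 0.0113), without a filter on low counts (0.0226) and with all 12 libraries in the fit (0.014), and over all alternatives with 6 or 12 libraries the adjusted p ran up to 0.127. Leaving out CTL 93 gave the highest adjusted p, 0.528, with a log2 fold change of -0.62.

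Klf10 stood at 13.2 ± 1.58 CPM in CTL and 21.1 ± 6.16 CPM in LIP. Its log2 fold change was 0.67 (SE 0.22, unadjusted p = 0.0159, edgeR adjusted p = 0.208), and LIP 97, at 14.9 CPM, lay close to the highest CTL library at 14.5 CPM. Without LIP 90 the log2 fold change was 0.70 (adjusted p = 0.0799). Klf7 differed by 0.44 (adjusted p = 0.35), and without LIP 90 by 0.69 (adjusted p = 0.00701). Klf6 differed by 0.47 (adjusted p = 0.343), and LIP 90 was its highest library, without which the value was 0.25 on the log2 scale (adjusted p = 0.393). Klf13 was at 0.19 (interval -0.07 to 0.46), Klf2 at -0.25 (-0.94 to 0.44) and Klf4 at 0.01 (-0.63 to 0.64), so that a 1.92-fold lower level of Klf2 or a 1.56-fold higher level of Klf4 in LIP lay within these intervals. Without LIP 90, Klf2 stood at -0.026 (adjusted p = 0.963). LIP 90 thus lay nearer to CTL than the other LIP libraries for Klf3 and Klf7, and farther from CTL for Klf6. It was also the day 2 library with the lowest sum of B cell markers, and among the LIP libraries the one with the lowest sum of CD8 markers. The 6 activation genes summed to 6216 CPM in LIP 90, against 4358 and 4782 CPM in LIP 96 and LIP 97 and 5466 to 5767 CPM in CTL. Among them Tfrc, the transferrin receptor, stood at 1612 CPM in LIP 90, against 285 and 568 CPM in LIP 96 and LIP 97. In CTL Tfrc stood at 1116 to 1310 CPM. The proliferation marker Mki67 of the same list stood at 1537 to 1966 CPM in LIP and 1572 to 1954 CPM in CTL. The IL-2 receptor gene Il2ra stood at 1582 to 1832 CPM in LIP and 1297 to 1847 CPM in CTL. By log2 fold change, 1 of the 6 genes was higher in LIP on day 2. The part of these lists in the differences between LIP and CTL was not tested.

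**Figure D4:**
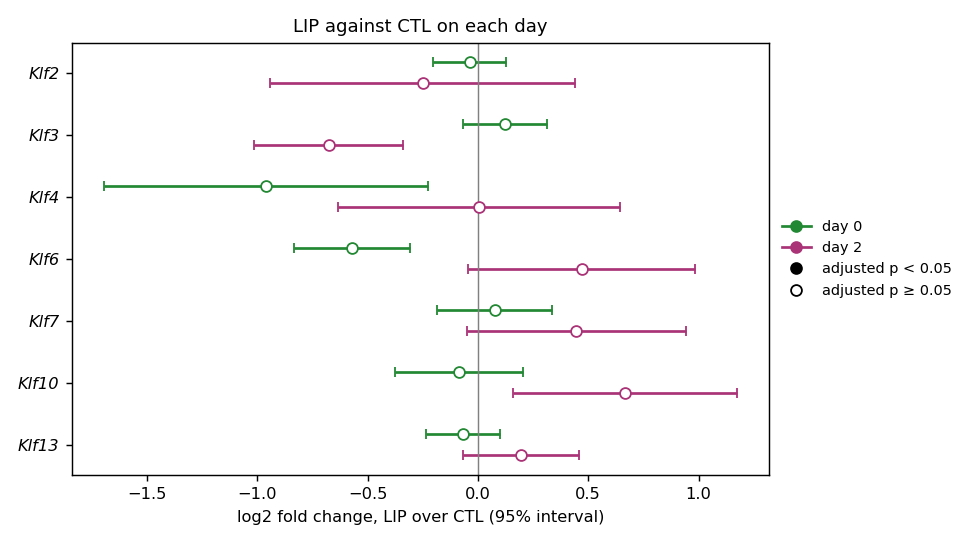
Log2 fold change of LIP over CTL on day 0 (green) and day 2 (purple) for each member, with 95% intervals. All points are open, since none passed an adjusted p of 0.05 in edgeR, and the intervals that leave out 0 are those of Klf4 and Klf6 on day 0 and of Klf3 and Klf10 on day 2.

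The difference of the LIP effect between the days, which is also the difference of the culture change between the groups, was tested directly on all 12 libraries. Of the 7 members 0 passed the adjusted threshold, where 0.0517% of 15475 genes did (8 genes, with 2464 at an unadjusted p below 0.05 and 531 called by DESeq2). At an unadjusted p below 0.05, 4 members passed, where 15.9% of genes did. Klf3 had a difference of -0.78 (SE 0.18, unadjusted p = 0.000635, adjusted p = 0.0871), a fall in culture that was 1.72-fold larger in LIP than in CTL (interval 1.32 to 2.24). Klf6 had a difference of 1.06 (SE 0.29, unadjusted p = 0.00247, adjusted p = 0.109), Klf10 of 0.78 (unadjusted p = 0.0134, adjusted p = 0.186) and Klf4 of 0.98 (unadjusted p = 0.0393, adjusted p = 0.283), all toward higher values in LIP on day 2. Without LIP 90, Klf3 stood at -0.92 (adjusted p = 0.00186) and Klf6 at 0.81 (adjusted p = 0.0436), and 1596 genes were called in all. With DESeq2 both Klf3 (adjusted p = 0.00903) and Klf6 (adjusted p = 0.0174) passed, as they did in edgeR without a filter on low counts (0.0024 and 4.49e-05), and Klf3 also passed with library totals (0.0387). Klf10 and Klf4 passed in 0 of the alternatives run. Whether Klf6 changed differently in the groups thus depended on the test, the filter and LIP 90.

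The trafficking genes tied to KLF2 were set beside it. Of the 6 genes reported, 4 fell and 0 rose in culture in CTL, where 33.7% of all genes were called lower and 35.3% higher. In LIP 4 fell and 1 rose, where 35.2% of all genes were called lower and 36.6% higher. S1pr1, the sphingosine 1-phosphate receptor for exit from lymphoid organs, went from 505, 620 and 378 CPM to 10.9, 13.5 and 16.3 CPM in CTL (log2 fold change -5.21, SE 0.25, adjusted p = 1.62e-09). In LIP it went from 442, 379 and 417 CPM to 10.6, 17.7 and 20.4 CPM (-4.68, SE 0.24, adjusted p = 2.61e-09). The S1pr1 values of the days were wholly apart and its change exceeded that of Klf2 in both groups.

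S1pr4, a related receptor, fell with log2 fold changes of -1.66 in CTL and -1.495 in LIP, and Itgb7, an integrin chain for homing to the gut, fell by 2.04 and 1.77. Cxcr3, a chemokine receptor for entry into inflamed tissue, had log2 fold changes of -1.96 (adjusted p = 0.000123) in CTL and -2.54 (adjusted p = 1.06e-05) in LIP. Ccr7, which guides cells into lymph nodes, passed in neither group, at -0.16 (adjusted p = 0.477) and 0.39 (adjusted p = 0.0904). The gene that rose in LIP was Cd69, an early activation marker that holds S1PR1 inside the cell (log2 fold change 1.01, adjusted p = 0.000375), and in CTL it stood at 0.13 (adjusted p = 0.561). On day 0, 1 of the 6 passed between LIP and CTL, where 0.427% of all genes did, again Cd69, which was lower in LIP (-0.90 on the log2 scale, adjusted p = 0.0375). Leaving out CTL 94 gave -1.09 for it (adjusted p = 5.95e-05). On day 2, 0 of 6 passed, where 0% of all genes did, and 0 had an unadjusted p below 0.05, where 16.5% did, in edgeR.

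**Figure D5:**
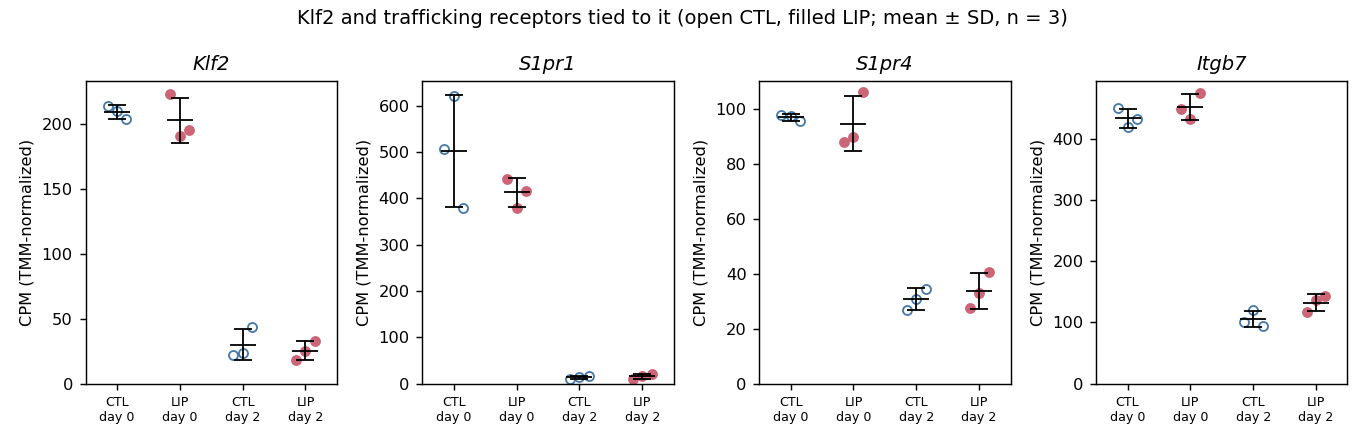
Klf2 and 3 trafficking receptors in each library, in CPM after TMM normalization, on linear axes from 0, with CTL open, LIP filled and bars for the mean ± SD of 3 libraries. Klf2, S1pr1, S1pr4 and Itgb7 are all lower on day 2 in both groups.

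Quiescence genes and factors upstream of Klf2 were counted as well. Of 15 genes, 0 rose and 9 fell in culture in each group, with median log2 fold changes of -0.84 in CTL and -0.66 in LIP, where 33.7% of all genes were called lower in CTL and 35.2% in LIP. Il7r, the receptor chain for the survival factor IL-7, fell by 3.21 and 2.48 on the log2 scale, and Tcf7, a factor of naive and memory cells, by 1.71 and 1.99. Foxo1, a direct activator of Klf2, differed by -0.30 (adjusted p = 0.0512) in CTL and -0.15 (adjusted p = 0.288) in LIP. The kinases Map2k5 and Mapk7 of the ERK5 pathway that induces Klf2 passed in neither group, and of their targets Mef2a and Mef2d fell in both. As a check of activation, 5 of 6 activation genes rose in CTL and 6 of 6 in LIP, with Il2ra, the high-affinity IL-2 receptor chain, higher by 4.30 and 4.05 on the log2 scale, where 35.3% and 36.6% of all genes were called higher.

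Of 20 other KLF and SP genes with a count record 19 were listed, of which 10 were tested on day 0 and 11 on day 2 and between the days. In culture 4 rose and 4 fell in CTL, and 4 rose and 3 fell in LIP, with medians of -0.10 and -0.15, where 35.3% of all genes were called higher and 33.7% lower in CTL, and 36.6% and 35.2% in LIP. Klf9, a factor responsive to glucocorticoids, rose by 0.99 and 1.18 on the log2 scale in CTL and LIP, and Klf16 rose by 0.70 and 0.52. Sp3 and Sp4, which bind GC boxes, fell in both groups, Sp4 by 1.40 and 0.96. Klf5 was at 0 in the 3 CTL libraries of day 0 (which allows up to 0.36 to 0.451 CPM), at most 0.14 CPM in LIP on day 0, and at 1.36 to 2.15 CPM in CTL and 1.04 to 1.43 CPM in LIP on day 2. Between LIP and CTL, 0 of these genes passed on either day with all libraries, where 0.427% of all genes did on day 0 and 0% on day 2. Without CTL 94 of day 0, Sp6 passed, with a log2 fold change of -1.03 (adjusted p = 0.00848), where 4.59% of all genes were called. On day 0, Klf11 (log2 fold change -0.68, unadjusted p = 0.00404, adjusted p = 0.154), Sp6 (-0.86, unadjusted p = 0.00139, adjusted p = 0.112) and Sp3 (-0.21, unadjusted p = 0.0155, adjusted p = 0.24) were lower in LIP at an unadjusted p below 0.05, and Klf8 was higher, so that 4 of 10 passed where 13.9% of all genes did.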

How the data were processed

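RNA of splenic CD4+ T cells was analysed in 12 libraries, grouped by sample title. Following FastQC 0.11.9 and Trimmomatic (0.38 in the submitters' processing notes, another version in the methods of the study), the authors mapped reads to GRCm39, and the deposited values are expected counts, which RSEM 1.3.0 with Bowtie2 estimated for each gene and which were not normalized. The strand setting and annotation release are not given in the sources used here. The deposited tables of each day hold the authors' own normalized CPM, fold changes and p-values, of which only identifiers and symbols were read. On day 2, a further 2 LIP columns there match no labelled sample and were not used.

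Expected counts were rounded (73267 values were not whole; 27193 of 55414 records were 0 throughout) and fitted in R 4.3.3 with edgeR 4.0.16 (filterByExpr, TMM, quasi-likelihood test, Benjamini-Hochberg over all genes tested). LIP was compared with CTL in the 6 libraries of each day, and days and their interaction in all 12. CPM values used TMM factors over 12 libraries (0.869 to 1.134). Intervals are 95%. Alternatives used RLE, upper-quartile or no factors, DESeq2 1.42.0, other filters, other sets of libraries and leaving out each library. Canonical transcript length, and list genes without CTL 94 or LIP 90, were added after seeing the data. Lengths, positions and promoters came from GENCODE M39. Fits were tested on simulated data. Genes named are the 7 members, genes of fixed lists set beside them (of the genes tied to KLF2, 2 are not reported here), and for each member the 3 genes most like it. The members and lists were chosen with earlier results of these data known. The data.table package (version 1.17.8), Python 3.11.15, pandas 2.3.3 and matplotlib 3.10.9 were used.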

Additional observations from a re-analysis of the deposited data

How the results depend on the processing

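The members called between LIP and CTL depended on the test and the libraries. On day 0 edgeR called 0, and DESeq2 and the fit with no filter on low counts called 1 each (Klf6), with 0 to 1 when each library was left out. On day 2 it called 0, and DESeq2, no filter and all 12 libraries in one fit called 1 each (Klf3), with 0 to 2 when each library was left out. For the difference between days it called 0, library totals called 1 (Klf3), and DESeq2 and no filter called 2 each (Klf3 and Klf6), with 0 to 2 when each library was left out. Without a filter edgeR called 645, 662 and 815 genes of all kinds in these comparisons, against 60, 0 and 8, DESeq2 called 206, 489 and 531, and the fit of all 12 libraries called 12 on day 0 and 775 on day 2. The cause of these shifts was not tested. In culture the number called stayed at 6 to 7 in CTL and 4 to 6 in LIP when each library was left out. Of 15738 to 15981 genes tested, these fits called 10058 to 11268 in CTL and 10298 to 11280 in LIP. Between LIP and CTL such fits called 13 to 658 of 14329 to 14403 genes on day 0. They called 0 to 2014 of 14282 to 14474 genes on day 2, and 1 to 1596 genes for the difference between days.

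Upper-quartile factors and library totals moved the median of all genes to -0.31 and -0.21 between days in CTL and to -0.32 and -0.36 in LIP, and the genes called higher from 5456 to 4259 and 4621 in CTL and from 5665 to 4293 and 4138 in LIP. Klf2, Klf3, Klf4 and Klf13 kept direction and call in culture under every alternative run, except that Klf4 was not tested with at least 10 counts in every library. Values near 0 changed sign. With library totals these were Klf2 (0.03) and Klf13 (0.002) on day 0, Klf4 on day 2 (-0.078) and Klf10 in LIP culture (-0.109). With upper-quartile factors they were Klf4 on day 2 (-0.007) and Klf10 in LIP culture (-0.064), and with at least 10 counts in every library Klf4 on day 2 (-0.004). When each library was left out, sign changes were within ranges of -0.111 to 0.005 (Klf2, day 0), -0.075 to 0.166 (Klf7, day 0), -0.475 to 0.128 (Klf2, day 2), -0.197 to 0.3 (Klf4, day 2), -0.424 to 0.176 (Klf2, difference between days) and -0.398 to 0.037 (Klf6, LIP culture). Where 1 library was left out, a group of 2 was assumed to share the spread of the others. No paired analysis was possible because each pair of groups compared, LIP with CTL on a day or the days within a group, shares at most 1 replicate number.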

Other observations

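Genes known as partners or targets of single members were counted apart from the comparisons above. Of 13 such genes, 3 rose and 5 fell in culture in CTL, and 6 rose and 6 fell in LIP, where 35.3% of all genes were called higher and 33.7% lower in CTL, and 36.6% and 35.2% in LIP. Cdkn1a, the cell cycle inhibitor p21 that KLF4 and KLF6 are known to activate, stood at 0.449 and 0.505 CPM in CTL and LIP on day 0 and at 260 and 157 CPM on day 2. Cdkn1b, the inhibitor p27 of resting cells, fell by 1.67 and 1.18 on the log2 scale. Fhl3, a partner of KLF3, rose by 2.49 and 2.20, and the corepressor gene Ctbp1 differed by 0.23 (adjusted p = 0.0975) in CTL and rose by 0.32 (adjusted p = 0.0263) in LIP. Of the TGF-β genes that KLF10 acts with, Tgfb1 rose by 1.45 and 1.48, while the receptor gene Tgfbr2 fell by 1.79 and 1.501 and the inhibitor gene Smad7 by 2.19 and 1.64. Ccl5, the chemokine gene that KLF13 binds, fell by 2.47 and 1.18, and on day 2 it stood at 3.25 CPM in CTL and 11.5 CPM in LIP (log2 fold change 1.79, unadjusted p = 0.000698, edgeR adjusted p = 0.114). CD8 T cells also express Ccl5, and on day 2 the CD8 markers summed to 4.42 to 6.32 CPM in CTL and 4.92, 13.2 and 9.19 CPM in LIP 90, LIP 96 and LIP 97, where Ccl5 stood at 8.94, 9.16 and 16.4 CPM. Their part in the difference was not tested. Cdkn1a was lower in LIP on day 2, with a log2 fold change of -0.74 (unadjusted p = 0.00757, adjusted p = 0.171). At an unadjusted p below 0.05, 4 of the 13 genes passed on day 2, 3 higher and 1 lower in LIP, where 16.5% of all genes did, and 0 passed the adjusted threshold, where 0% did. Without LIP 90, Ccl5 stood at 1.97 (adjusted p = 0.00663) and Cdkn1a at -0.98 (adjusted p = 0.00336), where 2014 of all genes were called.

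The genes whose pattern over the 12 libraries was most like that of each member were found by the root mean square (RMS) difference of gene-centred log2 CPM over 15475 genes. Those nearest to Klf13 were Vps13d (RMS 0.063), Zfp677 (0.068) and Ankrd44 (0.079). Those nearest to Klf3 were Gm2682 (0.157), Prag1 (0.198) and Tgfb1i1 (0.202), and to Klf2 Gm43703 (0.246), Gab3 (0.254) and Pik3r5 (0.265). Among the members, Klf7 and Klf13 were each other's nearest (0.374), as were Klf2 and Klf3 (0.411). Klf3 stood at rank 85 of all genes for Klf2, and Klf2 at rank 102 for Klf3, while Klf13 stood at rank 2322 for Klf7 and Klf7 at rank 2240 for Klf13. Those nearest to Klf6 were Ttc30b (0.216), Tgfbr3 (0.248) and Washc4 (0.257), to Klf7 Chd2 (0.137), Dennd2d (0.137) and Ccdc82 (0.145), to Klf10 BC029722 (0.186), Gatc (0.192) and Nadsyn1 (0.195), and to Klf4 Rps26-ps1 (0.215), Tmem39b (0.280) and Znhit1 (0.288). The points share their libraries.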
